A study of Mus musculus with 6 samples.

Results

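Antigen presentation genes were followed by RNA sequencing of pancreatic islets taken from C57BL/6 mice at 8 weeks of age. The 10 genes, of 34745 in the expression table, were chosen by name for their role and all were matched. They comprise 6 genes of the MHC class I route (H2-K1, H2-D1, B2m, Tap1, Tap2 and Tapbp) and 4 genes of the MHC class II route (H2-Aa, H2-Ab1, H2-Eb1 and Cd74). The 6 libraries fall in 3 groups of 2. KO+DNMT3A islets come from βRapKO mice and carried Dnmt3a expression, named with the prefix Lv in the design text. KO islets come from βRapKO mice, in which beta cells lack Rptor, the gene of the mTORC1 subunit Raptor. WT islets have the wild-type genotype. GFP stands in the KO and WT library names without explanation. The deposited names of KO+DNMT3A replicate 2, KO replicate 2 and WT replicate 1 all carry the number 3, and what it marks is not given in the sources used here. The driver of the deletion and the number of mice per library are not given in the sources used here, so p-values reflect only how far the libraries of a group lie apart, and this distance may be technical.

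MHC class I molecules carry peptides made in the cytosol to the surface of almost every cell, where CD8+ T cells read them. The heavy chain (H2-K1, H2-D1) pairs with the light chain B2m and is loaded in the endoplasmic reticulum with peptides that the TAP transporter (Tap1 with Tap2) brings in, while tapasin (Tapbp) holds the empty heavy chain at the transporter and helps select the peptide. MHC class II molecules are made mainly by macrophages, dendritic cells and B cells and show peptides from taken-up proteins to CD4+ T cells. Their alpha and beta chains (H2-Aa with H2-Ab1 for I-A, and H2-Eb1 for the I-E beta chain) are held by the invariant chain Cd74 until they reach the endosome. In C57BL/6 mice the I-E alpha gene is not functional, so H2-Eb1 RNA does not give an I-E molecule there. Islets attract interest because beta cell class I and islet macrophage class II are involved in autoimmune diabetes.

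Values are FPKM, fragments per kilobase scaled to library size, which are per length and so can be compared between genes. The steps between the smallest values imply 780504 to 1920991 fragments assigned to genes in 5 of the libraries and only 244636 in WT replicate 1. KO replicate 2 and WT replicate 1 differed from the rest, with 0.11% and 0.17% of the summed FPKM from Ins1 and Ins2 against 16.5% to 30.5% in the others, and with 50.9% and 44.8% from mitochondrially encoded genes against 16.5% to 26.5%. Rptor measured 0.71 and 1.93 FPKM in libraries labelled KO+DNMT3A, 0.38 and 1.51 in libraries labelled KO, and 0.80 and 1.06 in libraries labelled WT. Dnmt3a measured 3.62 and 3.80 FPKM in libraries labelled KO+DNMT3A, 3.19 and 2.5 in libraries labelled KO, and 2.94 and 4.43 in libraries labelled WT. Rptor overlapped between all groups. Dnmt3a was higher in both KO+DNMT3A libraries than in both KO libraries and overlapped with WT. The names KO+DNMT3A, KO and WT stand for the libraries labelled so. These values sum every exon over every islet cell type, and which exons were deleted is not given in the sources used here. In whole islets, fewer cells of a type and less RNA per cell cannot be told apart.

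The promoters show what the class I and class II genes have in common in sequence. Genes of both classes are known to share an upstream module of X and Y boxes, read by the RFX and NF-Y factors together with the coactivators CIITA (class II) and NLRC5 (class I), and class I promoters also carry an element bound by interferon regulatory factors. Of the 10 genes, 7 had an entry in the RefSeq promoter table (GRCm38.p6): B2m, H2-K1, H2-D1, Tap1, Tapbp, H2-Aa and H2-Eb1. The 250 bases before the gene start were searched for TGANG followed, 15 to 25 bases later on the same strand, by ATTGG, the letters of a Y box core. These letters were written down after the sequences had been seen. Read along the gene, 5 of the 7 genes had the pair, against 1.42% of all 32851 promoters in the table (2.46% when both strands are counted). The 5 stretches follow, 120 bases each, with the pair in capitals. Also in capitals are matches on either strand to GAAA repeated after 2 free bases (2.98% of promoters, both strands) or to GAA, 2 free bases and GAAA (6.31%), which resemble the interferon factor element and do not overlap the pair.
B2m: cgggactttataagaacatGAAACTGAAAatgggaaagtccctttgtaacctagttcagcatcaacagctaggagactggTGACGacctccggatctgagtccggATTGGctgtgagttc
H2-K1: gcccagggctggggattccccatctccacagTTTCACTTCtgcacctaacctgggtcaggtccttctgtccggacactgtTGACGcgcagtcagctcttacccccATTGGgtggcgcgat
H2-D1: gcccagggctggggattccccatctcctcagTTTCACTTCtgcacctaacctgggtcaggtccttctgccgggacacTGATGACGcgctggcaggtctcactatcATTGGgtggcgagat
H2-Aa: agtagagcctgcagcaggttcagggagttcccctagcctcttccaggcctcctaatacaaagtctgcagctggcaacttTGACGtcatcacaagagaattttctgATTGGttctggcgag
H2-Eb1: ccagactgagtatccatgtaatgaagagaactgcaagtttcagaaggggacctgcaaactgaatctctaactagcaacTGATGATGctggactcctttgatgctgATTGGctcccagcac
The stretches lie at chr2:122147529-122147648 on the plus strand for B2m, chr17:34000349-34000468 on the minus strand for H2-K1, chr17:35262913-35263032 on the plus strand for H2-D1, chr17:34287857-34287976 on the minus strand for H2-Aa, and chr17:34305703-34305822 on the plus strand for H2-Eb1. Within the searched distance, the spacer from the closest TGANG to ATTGG was 20 bases in B2m, H2-K1 and H2-D1, 21 in H2-Aa and 19 in H2-Eb1. H2-K1 and H2-D1 matched at 108 of 120 positions of these stretches (90.0%). The repeated GAAA was found in B2m and the shorter form, on the opposite strand, in H2-K1 and H2-D1, and neither in H2-Aa or H2-Eb1. The windows of Tap1 and Tapbp held none of these 3 patterns on either strand. The Tapbp entry lies at chr17:33919228-33919527 on the plus strand, inside the annotated gene, which starts at 33915899. The H2-D1 stretch also lies inside its annotated gene, which starts at 35262730. The bases before these annotated starts of Tapbp and H2-D1 were not searched. A match is a description of letters and says nothing about binding in these islets.

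The light chain gene B2m (ENSMUSG00000060802, chromosome 2, 122147686 to 122153083, GRCm38) had the highest mean of the 10 genes, 294.6 FPKM over the 6 libraries. It measured 347 and 158 FPKM in KO+DNMT3A islets, 325 and 173 in KO islets and 475 and 289 in WT islets. WT replicate 1 was the highest and KO+DNMT3A replicate 2 the lowest, and the groups overlapped in each comparison. Summed markers of other cells were also high in WT replicate 1, where 7 duct markers summed to 2532 FPKM and 7 stroma markers to 1035 FPKM, against 106 to 1120 and 170 to 384 FPKM in the other libraries. Of the duct markers, 3 were highest in WT replicate 1 and 4 in KO+DNMT3A replicate 1. Of the stroma markers, 5 were highest in WT replicate 1 and 2 in KO replicate 2. The part of these cells in the B2m values was not tested. B2m has 1 annotated transcript of 860 bases, so its values rest on 116 to 573 fragments in 5 libraries and on 99.95 in WT replicate 1.

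The heavy chain genes H2-K1 and H2-D1, which are related in sequence to each other and to the H2-Q and H2-T genes, behaved differently across libraries. H2-K1 (ENSMUSG00000061232, chromosome 17, 33996017 to 34000347) measured 46.2 and 56.4 FPKM in KO+DNMT3A islets, 41.3 and 50.04 in KO islets and 34.8 and 52.3 in WT islets. It was the most even gene of the 10, with a 1.62-fold range over all libraries. Its standard deviation of log2(FPKM + 1), 0.25, was larger than that of only 4.9% of the 1335 genes with a mean of at least 20 FPKM. H2-D1 (ENSMUSG00000073411, chromosome 17, 35262730 to 35267499) measured 195 and 74.6 FPKM in KO+DNMT3A islets, 171 and 29.3 in KO islets and 59.2 and 91.9 in WT islets. It spanned a 6.66-fold range and differed 5.84-fold between the KO libraries alone, and its standard deviation, 0.999, exceeded that of 82.9% of the same 1335 genes. H2-D1 was above H2-K1 in 5 of the libraries, by 1.32-fold to 4.22-fold, and below it in KO replicate 2, at 0.59 of its level. Whether reads were shared among these relatives was not tested, so the split between H2-K1 and H2-D1 is uncertain. B2m stood at 1.44 and 1.21 times the summed heavy chain FPKM in KO+DNMT3A, at 1.53 and 2.18 times in KO, and at 5.05 and 2.005 times in WT.

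**Figure D1:**
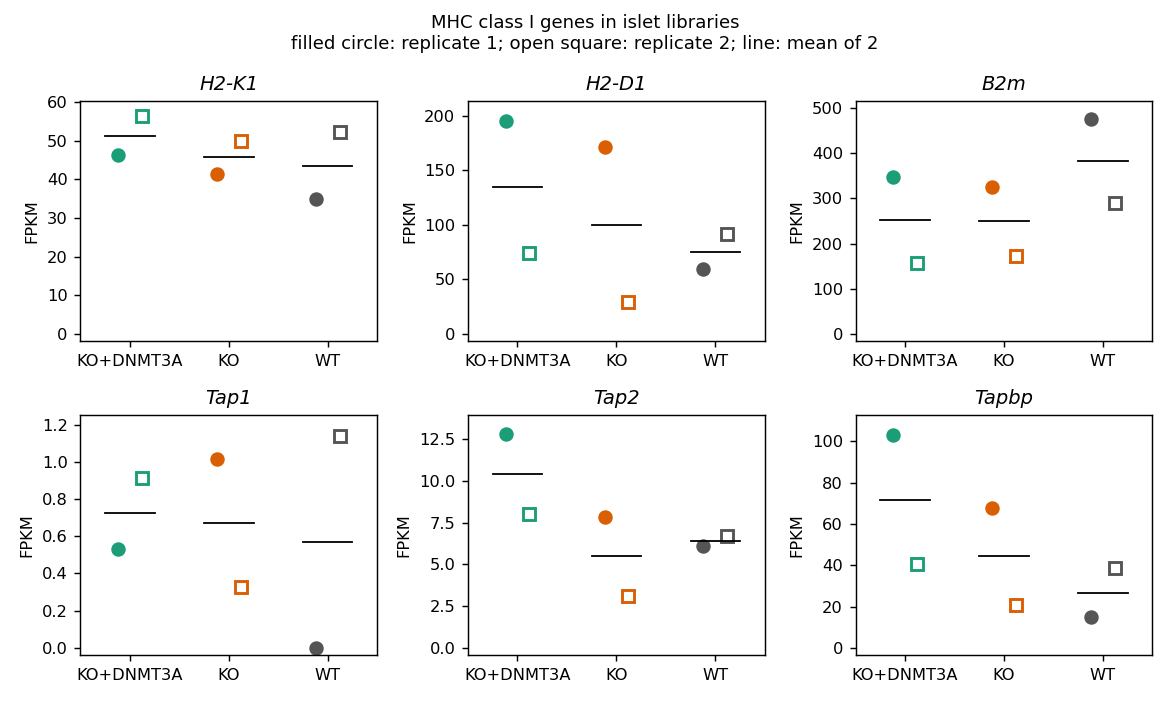
FPKM (vertical axes, from 0, a separate scale per gene) of the 6 class I genes in KO+DNMT3A, KO and WT islets, with 1 point per library and a line at the mean of the 2 libraries of a group. H2-K1 stays between 34.8 and 56.4 FPKM, while H2-D1 and Tapbp are high in replicate 1 of KO+DNMT3A and of KO.

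Peptide supply and loading genes differed widely in level. Tapbp (ENSMUSG00000024308, chromosome 17, 33915899 to 33929292) measured 103 and 40.5 FPKM in KO+DNMT3A islets, 67.9 and 20.7 in KO islets and 14.8 and 38.8 in WT islets. Both KO+DNMT3A libraries lay above both WT libraries, the nearest values being 40.5 and 38.8 FPKM. H2-D1 and Tapbp were each highest in KO+DNMT3A replicate 1 and next highest in KO replicate 1, which are also the libraries with the most inferred fragments, 1920991 and 1426335; the part of depth in this was not tested. Tap2 (ENSMUSG00000024339, chromosome 17, 34203527 to 34216321) measured 12.8 and 8.01 FPKM in KO+DNMT3A islets, 7.85 and 3.11 in KO islets and 6.10 and 6.71 in WT islets. Its KO+DNMT3A values were above all 4 others, the nearest pair being 8.01 and 7.85 FPKM. Tap1 (ENSMUSG00000037321, chromosome 17, 34187553 to 34197225), which encodes the other TAP subunit, measured 0.53 and 0.91 FPKM in KO+DNMT3A islets, 1.02 and 0.33 in KO islets and 0 and 1.14 in WT islets. These values rest on at most 5.66 fragments in any library, so no difference in Tap1 was detectable at this depth. Tap2 was 5.90 to 24.1 times Tap1 in the 5 libraries where Tap1 was above 0.

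Class II transcripts were far scarcer than class I transcripts. The 6 class I genes summed to 12.7 to 39.7 times the 4 class II genes in 5 libraries and to 72.3 times in WT replicate 1. The invariant chain Cd74 (ENSMUSG00000024610, chromosome 18, 60803848 to 60812652) measured 9.88 and 9.38 FPKM in KO+DNMT3A islets, 30.5 and 11.5 in KO islets and 8.16 and 24.6 in WT islets. The KO+DNMT3A libraries lay close together and below both KO libraries, and within the WT range. The WT replicate 1 value rests on at most 2.81 fragments.

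The I-A alpha chain H2-Aa (ENSMUSG00000036594, chromosome 17, 34282744 to 34287823) measured 0.81 and 3.14 FPKM in KO+DNMT3A islets, 4.11 and 1.5 in KO islets and 0 and 3.61 in WT islets. Its partner H2-Ab1 (ENSMUSG00000073421, chromosome 17, 34257689 to 34269419) measured 6.19 and 0.76 FPKM in KO+DNMT3A islets, 6.26 and 0 in KO islets and 0 and 3.49 in WT islets. H2-Eb1 (ENSMUSG00000060586, chromosome 17, 34305867 to 34316674) measured 0.88 and 3.02 FPKM in KO+DNMT3A islets, 7.70 and 3.25 in KO islets and 0 and 3.47 in WT islets. Each of the 4 class II genes was highest in KO replicate 1, and each was lowest, or tied at 0 with KO replicate 2, in WT replicate 1. The 3 chain genes were all listed at 0 in WT replicate 1, where a count of 0, taken as up to 3 fragments on the longest transcript, allows up to 3.81 FPKM for H2-Aa, 10.1 FPKM for H2-Ab1 and 7.35 FPKM for H2-Eb1. For H2-Ab1 this limit is above every value measured in the other libraries, so its 0 does not show that WT replicate 1 had less. For H2-Aa and H2-Eb1 the limit is above every value but that of KO replicate 1 (4.11 and 7.70 FPKM). In the other libraries the 3 chain genes rest on at most 18.9 fragments each.

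**Figure D2:**
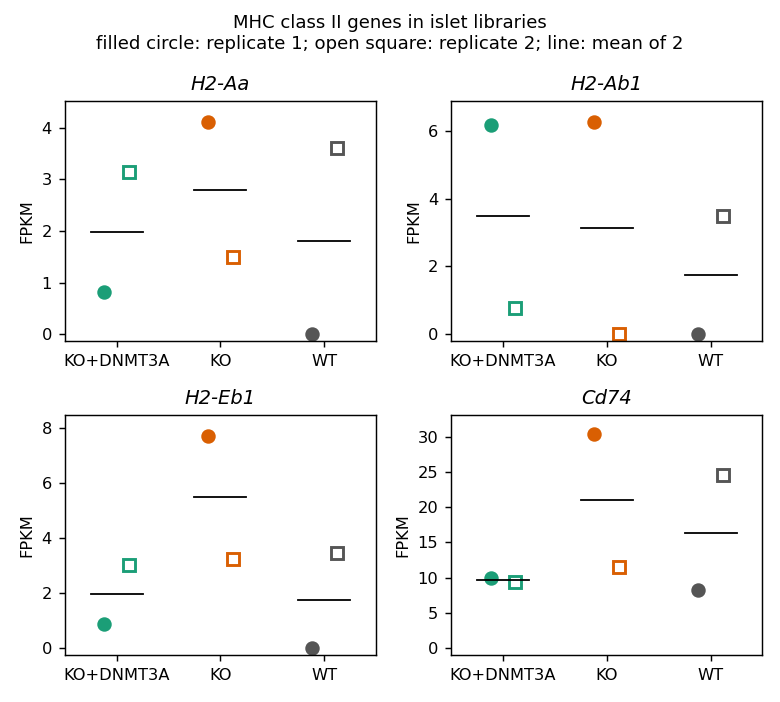
FPKM (vertical axes, a separate scale per gene, starting at 0) of the 4 class II genes in KO+DNMT3A, KO and WT islets, 1 point per library, with a line at the mean of the 2 libraries of a group. KO replicate 1 is the highest library in each panel, and the 3 chain genes are at 0 in WT replicate 1.

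Ordered by their mean level over the 6 libraries, the 10 genes ran B2m (294.6 FPKM), H2-D1 (103.5), Tapbp (47.6), H2-K1 (46.8), Cd74 (15.7), Tap2 (7.43), H2-Eb1 (3.05), H2-Ab1 (2.78), H2-Aa (2.20) and Tap1 (0.65). B2m was above H2-D1, H2-D1 above Tapbp, and H2-K1 above Cd74 in 6 of 6 libraries. Tapbp was above H2-K1 in 2 of 6, and the 3 class II chains changed order from library to library, so these neighbours did not differ beyond their spread. Cd74 was above Tap2 in 5 of 6 libraries and 1.25 to 2.43 times the summed chains in the 5 libraries with chain signal.

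The 3 comparisons were tested with limma on log2(FPKM + 1) over the 13233 genes that reached 1 FPKM in 2 or more libraries, and all 10 antigen presentation genes passed this filter. Fold changes are on the log2(FPKM + 1) scale, which understates the change of low genes. No gene of the 13233 passed at an adjusted p of 0.05 in any comparison. The smallest adjusted p was 1 for KO against WT, 1 for KO+DNMT3A against KO and 0.997 for KO+DNMT3A against WT. At an unadjusted p under 0.05 there were 240, 147 and 379 genes, which is 1.81%, 1.11% and 2.86% of those tested, and none of the 10. With 2 libraries per group these counts do not show that the genes were unchanged.

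The KO against WT comparison concerns the deletion of Rptor in beta cells. No class I or class II gene passed (0 of 10, against 0% of all genes). Class I was split, with 3 of 6 genes higher in KO (the side of H2-K1, H2-D1 and Tap1 changed with the scaling) and a median log2 fold change of 0.02, where 52.4% of all genes were above and 47.3% below 0, with a median of 0.03. B2m had a log2 fold change of -0.64 (SE 0.70, limma adjusted p = 1) and Tapbp of 0.63 (SE 0.83), and the KO and WT values overlapped for all 6. All 4 class II genes had a log2 fold change above 0, and their median was 0.55 (1.25 with a pseudocount of 0.1 FPKM). H2-Eb1 had the largest fold change, 1.52 (SE 0.83, and 3.10 with that pseudocount), and Cd74 had 0.37 (SE 0.72). None of the 4 separated the groups, where 9.36% of all genes did so in the higher and 10.5% in the lower direction. The class II median was -0.37 without WT replicate 1, -0.04 without KO replicate 1, 1.51 without KO replicate 2 and 1.63 without WT replicate 2. The class I median was -0.53 without KO replicate 1, -0.32 without WT replicate 1, 0.36 without KO replicate 2 and 0.32 without WT replicate 2.

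The KO+DNMT3A against KO comparison concerns added Dnmt3a expression on the βRapKO background. Cd74 had a mean of 9.63 ± 0.35 FPKM in KO+DNMT3A islets, against 21.0 ± 13.4 in KO islets (SD, n = 2 each), a log2 fold change of -0.90 (SE 0.72, limma adjusted p = 1). H2-Eb1 had a mean of 1.95 ± 1.52 FPKM in KO+DNMT3A islets, against 5.47 ± 3.15 in KO islets, a log2 fold change of -1.14 (SE 0.83). In both genes the KO+DNMT3A libraries were below the KO libraries, a separation that 5.43% of all genes showed. For Cd74 the nearest values were 9.88 FPKM in KO+DNMT3A and 11.5 in KO. For H2-Eb1 they were 3.02 and 3.25 FPKM, which rest on at most 5.64 and 4.23 fragments, so this gap is within counting error. H2-Aa had -0.38 (SE 0.85) and H2-Ab1 0.40 (SE 1.16), so 3 of the 4 class II genes were lower, against 31.8% of all genes below 0, with a median of -0.64 beside 0.19 for all genes. Without KO replicate 1 the class II median was -0.05, without KO replicate 2 -1.30 and without KO+DNMT3A replicate 2 -0.92. Its size therefore depended on which KO library was kept.

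Most class I genes had positive fold changes in the same comparison, and the difference between the classes was not tested. Of the 6, 5 were higher in KO+DNMT3A, against 68.2% of all genes above 0, with a median of 0.46 beside 0.19 for all genes. Tap2 had a mean of 10.4 ± 3.40 FPKM in KO+DNMT3A islets, against 5.48 ± 3.35 in KO islets (log2 fold change 0.89, SE 0.59, limma adjusted p = 1) and was the only class I gene whose groups did not overlap, where 17.2% of all genes were separated in this direction. Tapbp had 0.77 (SE 0.83), H2-D1 0.75 (SE 0.92), H2-K1 0.16 (SE 0.56, and -0.03 after median scaling) and B2m -0.02 (SE 0.70). Tap1 had 0.07 (SE 0.62, and -0.13 after median scaling). The class I median was -0.15 without KO replicate 2, 0.94 without KO replicate 1, 0.16 without KO+DNMT3A replicate 1 and 0.87 without KO+DNMT3A replicate 2. Median scaling moved the median of all genes in this comparison to -0.01. All 8 beta cell markers (median 1.10) and all 7 duct markers (median 1.36) also had a log2 fold change above 0 in this comparison, and their part in the class I values was not tested.

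The KO+DNMT3A against WT comparison sets islets with both interventions beside wild-type islets, and it shares its KO+DNMT3A libraries with the comparison above and its WT libraries with KO against WT. Tapbp had a mean of 71.8 ± 44.3 FPKM in KO+DNMT3A islets, against 26.8 ± 17.0 in WT islets (SD, n = 2 each), the largest class I fold change at 1.39 (SE 0.83, limma adjusted p = 0.997). Tap2 had a mean of 10.4 ± 3.40 FPKM in KO+DNMT3A islets, against 6.40 ± 0.43 in WT islets (0.59, SE 0.59). In WT replicate 1 the Tapbp and Tap2 values rest on at most 10.46 and 5.13 fragments. These 2 of 6 class I genes had groups that did not overlap, where 19.2% of all genes were separated in the higher and 7.87% in the lower direction. Tap1 had 0.23 (SE 0.62), and -0.30 after quantile normalization. B2m was the class I gene with the lower mean, at -0.66 (SE 0.70), and the class I median was 0.42 (0.68 with a pseudocount of 0.1 FPKM), with 64.8% of all genes above 0 and a median of 0.23. The class I median was 0.18 without WT replicate 1, 0.72 without WT replicate 2, 0.34 without KO+DNMT3A replicate 1 and 0.51 without KO+DNMT3A replicate 2.

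Class II gave no steady direction against WT. Cd74 had a log2 fold change of -0.53 (SE 0.72, limma adjusted p = 0.997) and the 3 chain genes had 0.35 (H2-Aa, SE 0.85), 0.75 (H2-Ab1, SE 1.16) and 0.38 (H2-Eb1, SE 0.83). Quantile normalization turned H2-Aa to -0.20 and H2-Eb1 to -0.15. The median of 0.37 was 1.52 with a pseudocount of 0.1 FPKM, -0.73 without WT replicate 1, in which the chains are at 0, -0.21 without KO+DNMT3A replicate 2 and 1.46 without WT replicate 2.

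**Figure D3:**
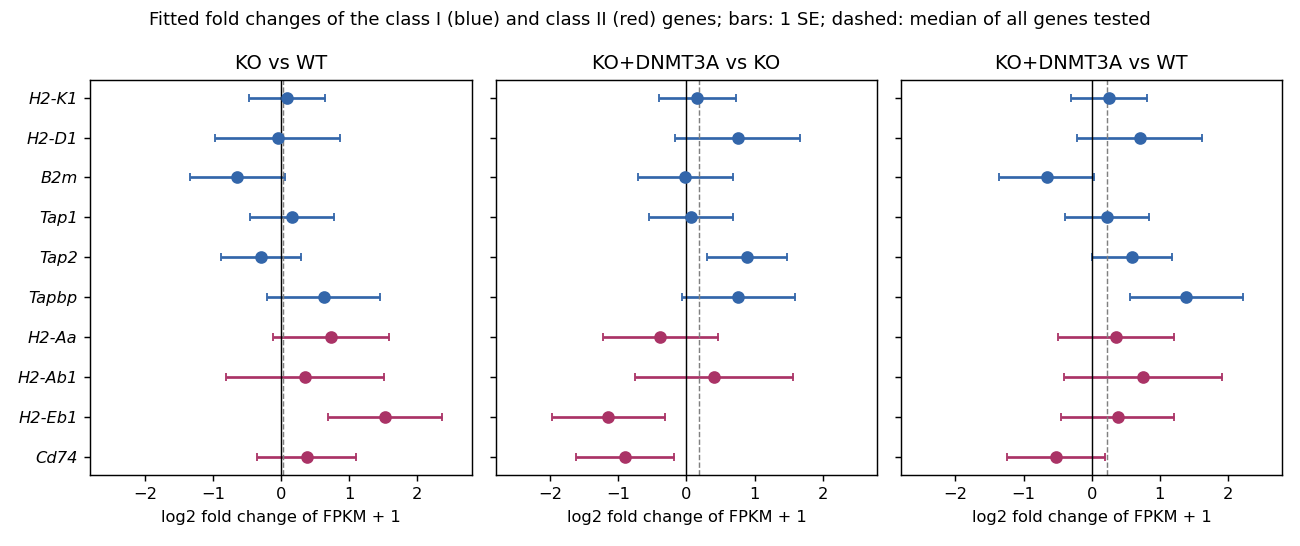
Log2 fold changes of FPKM + 1 (horizontal axes) of the 6 class I genes (blue) and the 4 class II genes (red) in the 3 comparisons, with bars of 1 SE from limma and a dashed line at the median of all 13233 genes. Cd74 and H2-Eb1 lie left of 0 in KO+DNMT3A against KO, at -0.90 and -1.14, and none of the 10 genes passed the test.

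Markers of antigen-presenting cells were read beside class II. Summed FPKM of 14 macrophage markers was 244 and 166 in KO+DNMT3A, 528 and 341 in KO, and 571 and 518 in WT. Of the 12 that were tested, 12 were lower in KO+DNMT3A than in KO (median log2 fold change -0.997) and 9 did not overlap, where 31.8% of all genes were below 0 and 5.43% separated in this direction. Against WT 12 were lower in KO+DNMT3A (median -1.32) and 10 did not overlap, where 35.2% of all genes were below 0 and 7.87% separated. Between KO and WT, 11 were lower in KO (median -0.30), where 47.3% of all genes were below 0. No marker passed the test. Dendritic cell markers summed to at most 1.49 FPKM, with Flt3, Xcr1 and Cd209a at 0 in all libraries and none of the 7 passing the filter. B cell markers were at 0 but for 0.43 FPKM of Cd79b in KO+DNMT3A replicate 2, and all 6 T and NK cell markers were at 0 in all libraries.

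Set against the macrophage sum, Cd74 was 4.05% and 5.65% in KO+DNMT3A, 5.77% and 3.37% in KO, and 1.43% and 4.75% in WT, and these ranges overlap between KO+DNMT3A and KO. Against Tyrobp, a signalling adaptor gene of myeloid cells, Cd74 was 0.76 and 0.66 in KO+DNMT3A, 0.58 and 0.32 in KO, and 0.14 and 0.42 in WT. This ratio was higher in both KO+DNMT3A libraries than in all KO and WT libraries. Tyrobp itself had a log2 fold change of -1.61 in KO+DNMT3A against KO and -2.02 against WT, so the ratio also reflects its denominator. WT replicate 1 had the highest macrophage sum and the lowest Cd74, with few fragments. The part of macrophage content in the class II values was not tested.

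**Figure D4:**
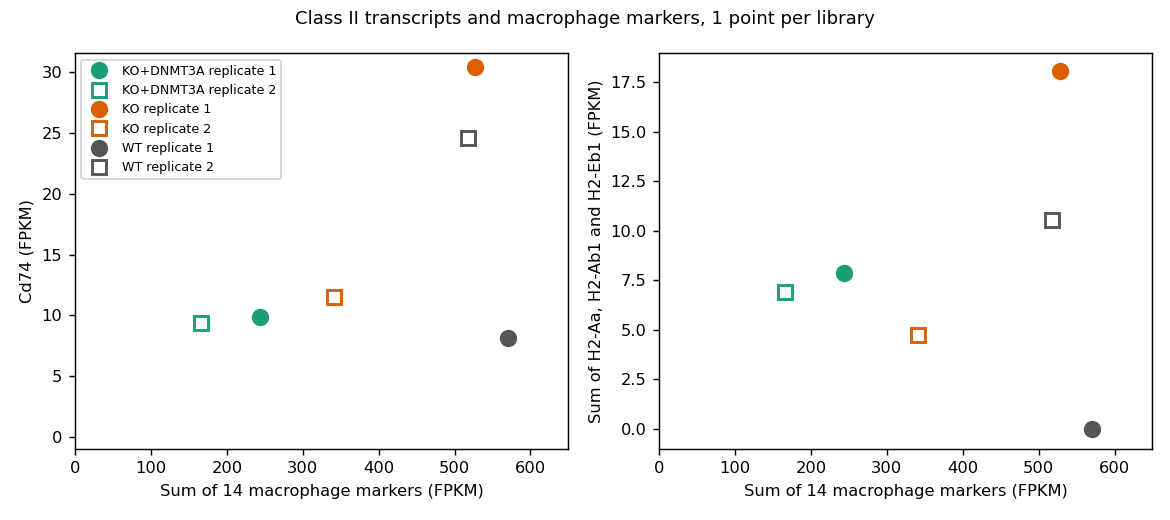
Cd74 (left, FPKM) and the sum of H2-Aa, H2-Ab1 and H2-Eb1 (right, FPKM) against the summed FPKM of 14 macrophage markers (horizontal axes), 1 point per library, filled for replicate 1 and open for replicate 2. KO replicate 1 and WT replicate 2 are high on both axes, the KO+DNMT3A libraries sit at 244 and 166 FPKM of markers, and WT replicate 1 combines 571 FPKM of markers with 8.16 FPKM of Cd74.

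The further genes of the class I route, 11 genes of peptide trimming, chaperoning and the immunoproteasome, were all tested and none passed. Against KO, 9 were higher and 2 lower in KO+DNMT3A (median 0.40), where 68.2% of all genes were above 0 with a median of 0.19. Against WT 10 were higher and 1 lower (median 0.43), where 64.8% of all genes were above 0 with a median of 0.23. Between KO and WT 6 were higher in KO and 5 lower (median 0.05), where 52.4% of all genes were above 0. The 4 most abundant were chaperones and a transport factor that serve many proteins. Pdia3, a disulfide isomerase of the peptide-loading complex, measured 308 and 96.0 FPKM in KO+DNMT3A islets, 402 and 38.3 in KO islets and 79.6 and 229 in WT islets. Calreticulin, Calr, measured 134 and 117 FPKM in KO+DNMT3A islets, 149.7 and 109 in KO islets and 96.2 and 199 in WT islets. Calnexin, Canx, lay between 35.2 and 84.6 FPKM and the ER export factor Bcap31 between 15.8 and 93.6 FPKM. Pdia3 and Bcap31 were lowest in KO replicate 2, as H2-D1 was.

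Other class I and class I-like genes numbered 17, of which 9 passed the filter, 3 (H2-Q1, H2-T3 and H2-M5) were at 0 in all libraries and none passed the test. Of the 9, 8 were higher in KO+DNMT3A than in KO (median 0.79) and 7 higher than in WT (median 1.003), while 5 were higher in KO than in WT (median 0.38). The shares of all genes above 0 were 68.2%, 64.8% and 52.4% in these comparisons. H2-Q2, a class I gene of the Q region, measured 24.9 and 22.2 FPKM in KO+DNMT3A islets, 31.3 and 9.06 in KO islets and 3.61 and 31.3 in WT islets. H2-M3, which presents formylated peptides, measured 7.24 and 7.47 FPKM in KO+DNMT3A islets, 11.2 and 0 in KO islets and 0 and 11.4 in WT islets. H2-T23, which encodes Qa-1, measured 12.4 and 3.05 FPKM in KO+DNMT3A islets, 10.4 and 0.20 in KO islets and 0 and 4.46 in WT islets. All 3 had their lowest values in KO replicate 2 and WT replicate 1, the insulin-poor libraries. The zeros in WT replicate 1 allow up to 8.53 FPKM of H2-M3 and 4.64 FPKM of H2-T23. The H2-M3 limit is above both KO+DNMT3A values but below those of KO replicate 1 and WT replicate 2. The H2-T23 limit is above the values of WT replicate 2 and of replicate 2 of KO+DNMT3A and KO. It is below those of replicate 1 of KO+DNMT3A and KO. The zeros do not show that WT replicate 1 had less than the libraries whose values lie below the limit. Fcgrt, the neonatal Fc receptor that also pairs with B2m, differed: it measured 8.69 and 3.09 FPKM in KO+DNMT3A islets, 10.5 and 6.63 in KO islets and 25.9 and 15.4 in WT islets. Its log2 fold change of KO+DNMT3A against WT was -1.74 (SE 0.64, unadjusted p = 0.0269, limma adjusted p = 0.997).

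Class II loading had 11 matched genes, of which 5 passed the filter and none the test. Of the 5, 2 were higher and 3 lower in KO+DNMT3A than in KO (median -0.06), 3 higher and 2 lower than in WT (median 0.08), and 2 higher and 3 lower in KO than in WT (median -0.22). In the same order, 68.2%, 64.8% and 52.4% of all genes were above 0, with medians of 0.19, 0.23 and 0.03. H2-DMb2, H2-Oa, H2-Ob and H2-Eb2 were at 0 in all libraries, and H2-DMa, the peptide exchange subunit, reached 2.84 FPKM. Ctss, the protease that trims the invariant chain in antigen-presenting cells, measured 12.2 and 11.5 FPKM in KO+DNMT3A islets, 37.1 and 12.1 in KO islets and 25.01 and 25.1 in WT islets. Like Cd74 it was nearly equal in the KO+DNMT3A libraries and highest in KO replicate 1, and its log2 fold change was -0.80 (SE 0.65) against KO and -1.03 (SE 0.65) against WT. Legumain, Lgmn, measured 23.5 and 11.4 FPKM in KO+DNMT3A islets, 22.3 and 19.2 in KO islets and 31.8 and 28.2 in WT islets. Both KO+DNMT3A and KO lay below WT, a separation that 7.87% (KO+DNMT3A) and 10.5% (KO) of all genes showed. The lysosomal thiol reductase Ifi30 lay between 12.5 and 34.6 FPKM and the lysosomal protease gene Ctsl between 33.8 and 262 FPKM.

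The regulators of both classes included very scarce transcripts. Nlrc5, the class I coactivator, measured 0 and 0.87 FPKM in KO+DNMT3A islets, 0 and 0.31 in KO islets and 0 in both WT libraries. Ciita, the class II coactivator, measured 0.20 and 0.17 FPKM in KO+DNMT3A islets, 0.27 and 0 in KO islets and 0 in both WT libraries. Neither passed the filter, and no difference in them was detectable at this depth. Irf1, an interferon-induced activator of class I genes, measured 7.22 and 8.07 FPKM in KO+DNMT3A islets, 7.30 and 4.44 in KO islets and 4.96 and 6.23 in WT islets. Of the 19 regulators 16 were tested and none passed; 12 were higher in KO+DNMT3A than in KO (median 0.25), 9 higher than in WT (median 0.09), and 7 higher in KO than in WT (median -0.19), beside 68.2%, 64.8% and 52.4% of all genes. The 4 most abundant were Irf2, between 10.7 and 20.6 FPKM, Jak1, between 8.25 and 14.1 FPKM, the interferon gamma receptor gene Ifngr1, between 3.87 and 18.6 FPKM, and Rela, which measured 15.1 and 13.8 FPKM in KO+DNMT3A islets, 14.5 and 9.91 in KO islets and 4.51 and 8.32 in WT islets. Rela, an NF-κB subunit gene, was above both WT libraries in all 4 others, with a log2 fold change of 1.11 (SE 0.55) for KO+DNMT3A and 0.86 (SE 0.55) for KO against WT. Of all genes, 19.2% (KO+DNMT3A) and 9.36% (KO) were separated from WT in this direction. The Rela value of WT replicate 1 rests on at most 3.0 fragments. Among the 16 regulators tested, 6 separated higher and 0 lower than WT in KO+DNMT3A, and 4 higher and 4 lower in KO. The shares of all genes separated lower than WT were 7.87% (KO+DNMT3A) and 10.5% (KO).

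**Figure D5:**
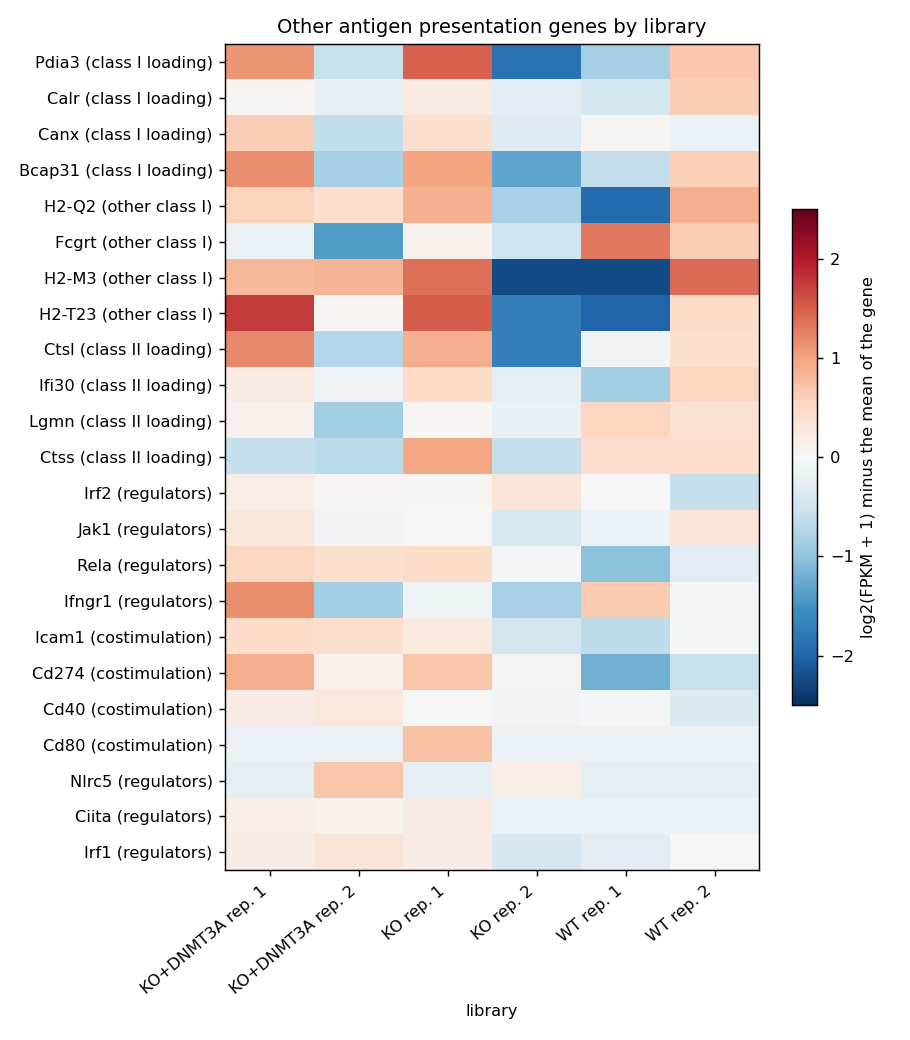
Log2(FPKM + 1) minus the mean of each gene over the 6 libraries (color) for further antigen presentation genes (rows) in each library (columns); these are differences, not levels. H2-M3 is listed at 0 in KO replicate 2, which allows up to 2.67 FPKM, and in WT replicate 1, which allows up to 8.53 FPKM. H2-T23 is listed at 0 in WT replicate 1, which allows up to 4.64 FPKM, and Ctss is highest in KO replicate 1.

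Among 9106 genes in no list with a mean of at least 2 FPKM, those whose profile over the 6 libraries was most like the mean class I profile were Rnmt, Atf6, Thoc5, Srsf3 and Rnf139. Their root mean square difference from it was 0.04 to 0.08 on the log2 scale. The members themselves differed from the class I profile by 0.22 (Tap2) to 0.59 (B2m), so the mean profile describes no member closely. For class II the most alike were Pomk, 2010204K13Rik, Nat8f1 and Snx16, at 0.18 to 0.24, all listed at 0 in the shallow WT replicate 1, beside 0.36 (Cd74) to 0.80 (H2-Ab1) for the members. With 6 libraries that differ in depth and insulin content, these lists describe likeness only.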

How the data were processed

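Islet RNA of 6 libraries was selected for poly-A and sequenced, per the labels' protocols. The authors deposited 1 FPKM value per gene and library, per the file headers. The submitters' processing notes name HISAT2 2.0.4, StringTie 1.3.0, edgeR and mm10 without role or order. Counts were not used here. Symbols, positions and transcript lengths come from GENCODE M21 (GRCm38), which left 401 identifiers without a symbol.

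Depth was inferred from 14421 genes with 1 transcript, where 84.3% to 91.5% of values up to 20 fragments were whole within 0.01. Fragment numbers of other genes assume the longest transcript and are upper limits. The limit for a value of 0 is 3 fragments and covers counting error only.

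limma 3.58.1 (R 4.3.3) was fitted to log2(FPKM + 1) of all 6 libraries for the 13233 genes reaching 1 FPKM in 2 or more of them, with a trended, robust empirical Bayes step, two-sided tests and Benjamini-Hochberg adjustment over all genes. On simulated data (13233 genes, KO against WT, real spread) it recovered 0 of 50 genes at each of 2-fold, 4-fold, 8-fold and 16-fold. With the spread reduced to 0.1 of this, 48, 50, 50 and 50 were found, with 6 false calls.

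Members and gene lists were chosen with earlier results of these data known. Named were the 10 members, up to 4 genes of highest mean in each other pathway list, Nlrc5, Ciita, Irf1, Rptor, Dnmt3a, Ins1, Ins2, and the 5 genes most like each class profile; 2 genes that this rule names are not reported here. H2-DMa, Tyrobp, Cd79b and the genes at 0 were added after their values were seen. Alternatives changed the pseudocount (0.1), the filter (none, or 5 FPKM), the scaling (quantile, median, or without Ins1, Ins2, mitochondrially encoded genes, Gm42418, Gm26917 and Lars2), the empirical Bayes step, the libraries fitted and the replicate block. Python 3.11.15, numpy 2.4.6, pandas 2.3.3 and matplotlib 3.10.9 made the tables and figures.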

Additional observations from a re-analysis of the deposited data

How the results depend on the processing

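No gene passed the adjusted threshold in limma in any comparison under any setting run. When 1 library was left out, the number of genes at an unadjusted p under 0.05 ran between 72 and 433 in KO+DNMT3A against KO, between 181 and 2263 in KO+DNMT3A against WT, and between 157 and 1713 in KO against WT. The fold changes of the 10 genes are therefore descriptions. Over all alternatives 58 of 528 fold changes turned sign and 7 of 108 class medians moved beyond the spread between replicates, and the cause was not tested. Changing the filter, the empirical Bayes step, the groups fitted or the replicate block cannot alter the fold change of a gene here. Neither can leaving out a library of a group not compared. These totals therefore make the fold changes look steadier than they are. With both insulin-poor libraries left out, 14 fold changes turned sign and 16 did not. Quantile normalization turned H2-D1 (0.043) and Tap1 (-0.094) in KO against WT, H2-K1 (-0.044) and Tap1 (-0.202) in KO+DNMT3A against KO, and Tap1 (-0.296), H2-Aa (-0.202) and H2-Eb1 (-0.147) in KO+DNMT3A against WT. Median scaling turned H2-D1 (0.044) in KO against WT, and H2-K1 (-0.032) and Tap1 (-0.129) in KO+DNMT3A against KO. Rescaling without insulin, mitochondrially encoded and rRNA-associated genes turned H2-K1 (-0.038) in KO against WT. A pseudocount of 0.1 moved the class II median of KO+DNMT3A against WT to 1.524 and that of KO against WT to 1.252, with 3.096 for H2-Eb1 and 2.091 for H2-Aa in KO against WT. Under it Tap1, H2-Aa, H2-Ab1 and H2-Eb1 measured 1.187, 1.499, 1.957 and 1.550 in KO+DNMT3A against WT.

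With both insulin-poor libraries left out, KO against WT gave H2-K1 -0.333, H2-D1 0.890, B2m 0.170, Tap1 -0.085 and Tap2 0.200. The same setting gave H2-D1 -0.499, Tap1 -0.235, Tapbp -0.069, H2-Ab1 -1.028 and a class I median of -0.152 in KO+DNMT3A against KO. In KO+DNMT3A against WT it gave H2-K1 -0.034, Tap1 -0.319, H2-Aa -0.749, H2-Ab1 -0.335, H2-Eb1 -0.701 and a class II median of -0.725. In that setting KO and WT have 1 library each, assumed to vary like the KO+DNMT3A group.

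Leaving out 1 library at a time gave, for KO against WT, -0.197 to 0.374 for H2-K1, -1.304 to 1.203 for H2-D1, -0.386 to 0.710 for Tap1, -0.848 to 0.259 for Tap2, -0.208 to 1.460 for Tapbp, -0.367 to 1.837 for H2-Aa, -1.083 to 1.776 for H2-Ab1, -0.368 to 1.115 for Cd74 and -0.368 to 1.633 for the class II median. For KO+DNMT3A against KO it gave -0.499 to 2.007 for H2-D1, -0.582 to 0.547 for B2m, -0.235 to 0.368 for Tap1, -0.069 to 1.6 for Tapbp, -0.979 to 0.214 for H2-Aa, -1.028 to 1.831 for H2-Ab1 and -0.152 to 0.940 for the class I median. For KO+DNMT3A against WT it gave -0.034 to 0.538 for H2-K1, -0.319 to 0.776 for Tap1, -0.749 to 1.455 for H2-Aa, -0.335 to 1.831 for H2-Ab1, -0.701 to 1.459 for H2-Eb1, -1.269 to 0.214 for Cd74 and -0.725 to 1.457 for the class II median.

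What the replicate numbers mark is not given in the sources used here. Deviations of same-numbered libraries correlated at -0.269 (KO and WT), 0.318 (KO+DNMT3A and KO) and 0.101 (KO+DNMT3A and WT), and the fit with the replicate block made 0 calls, with 154 genes at an unadjusted p under 0.05 in KO+DNMT3A against KO, 391 in KO+DNMT3A against WT and 285 in KO against WT. A crossed replicate block, with the KO numbers swapped, and a replicate block by the number 3 in the deposited names, both chosen after seeing the data, made 0 calls in each comparison. The depth of WT replicate 1 limits the class II chains, Tap1 and Cd74, and also Tap2, Rela, Icam1, Cd40 and Cd274. The filter of 5 FPKM left Tap1, H2-Aa and H2-Eb1 without a value, and the rescaled values left out Tap1.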

Other observations

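Costimulatory and adhesion genes, which act beside MHC molecules when T cells are engaged, were described by 6 genes, of which 3 passed the filter and none the limma test. All 3 had a higher mean in KO+DNMT3A than in WT, with a median log2 fold change of 0.80 beside 0.23 for all genes, and did not overlap between these groups, where 19.2% of all genes were separated in this direction. Cd274, which encodes the inhibitory ligand PD-L1, measured 3.31 and 1.48 FPKM in KO+DNMT3A islets, 2.71 and 1.41 in KO islets, and 0 and 0.57 in WT islets. Its log2 fold change was 1.39 (SE 0.58, unadjusted p = 0.0453, limma adjusted p = 0.997) for KO+DNMT3A against WT and 1.26 (SE 0.58, limma adjusted p = 1) for KO against WT. The 0 in WT replicate 1 allows up to 3.39 FPKM, above every Cd274 value measured, so it does not show that this library had less. The adhesion ligand gene Icam1 measured 11.5 and 11.3 FPKM in KO+DNMT3A islets, 9.66 and 5.55 in KO islets, and 4.83 and 7.68 in WT islets. It was higher in both KO+DNMT3A libraries than in the other 4. In WT replicate 1 the Icam1 and Cd40 values rest on at most 2.99 and 0.54 fragments. Cd40 stayed between 0.37 and 1.13 FPKM, Cd80 was above 0 only in KO replicate 1, and Pdcd1lg2 was at 0 in all 6 libraries.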
